A study of Homo sapiens with 12 samples.

Results

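The S100 calcium-binding proteins were followed here through 10 genes, S100A2, S100A4, S100A6, S100A8, S100A9, S100A10, S100A11, S100A14, S100A16 and S100P. Every gene probe on the array that carried 1 of these gene names was taken, which gave 11 probes among 50599, with 1 probe per gene except S100A11, which had 2. Gene expression was measured on 12 arrays in 3 human lung adenocarcinoma cell lines, A549, PC14 and PC14CDDP, the cisplatin-resistant line that has PC14 as its parental line. Each line received 4 transfections at 25 nM with DharmaFECT 1, and each combination of line and transfection was measured on 1 array. The transfections were premiR-197, a precursor that raises miR-197, its control AllStar-NC, LNA-miR-197, a locked nucleic acid inhibitor of miR-197, and its control LNA-miR-NC. The time between transfection and RNA extraction was not given in the sources used here. The lines differ in origin, each is 1 cell line, and the 4 arrays of a line are cultures of that line under different transfections, so p-values between lines measure the spread between these cultures and not between patients or independent lines.

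S100 proteins are small calcium-binding proteins that form dimers, each subunit folding around a pair of calcium-binding loops called EF-hands. Calcium opens a surface through which they bind target proteins such as annexins, non-muscle myosin and ezrin, and some are secreted and act on receptors such as AGER and TLR4. Most of the genes lie side by side in a cluster on the long arm of chromosome 1, S100P lies on chromosome 4, and several members are widely studied in carcinomas for their roles in motility and differentiation.

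Of the 11 probes, 4 that lie in coding sequence are shown, written as in the messenger RNA that they detect. Probe 1 of S100A11 holds the 12 codons of the second EF-hand loop, given in capitals, and probe 2 takes up the coding sequence at its last base. The S100A6 probe ends at the start of the matching loop of S100A6, and the S100A9 probe shows coding sequence of a member that was not detected. Positions are from the array files, in build hg19, and the S100A6 and S100A9 spans cross an intron.
S100A11 probe 1 (chr1:152005219-152005278, minus strand): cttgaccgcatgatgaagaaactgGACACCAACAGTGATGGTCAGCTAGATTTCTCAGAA
S100A11 probe 2 (chr1:152005160-152005219, minus strand): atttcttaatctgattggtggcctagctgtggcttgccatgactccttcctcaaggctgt
S100A6 (chr1:153507255-153507685, minus strand): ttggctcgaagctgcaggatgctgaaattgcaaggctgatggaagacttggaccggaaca
S100A9 (chr1:153330874-153333143, plus strand): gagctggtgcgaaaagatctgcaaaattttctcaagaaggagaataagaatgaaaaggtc

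The agent of the study was miR-197, and the labels do not say which arm was raised or blocked. The mature 3' arm in RefSeq (GRCh38.p14, chr1:109598940-109598961, plus strand) is shown with its seed, bases 2 to 8, in capitals.
hsa-miR-197-3p: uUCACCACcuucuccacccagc

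S100A4 and S100P differed most between the lines, and the 250 bases before their RefSeq starts (GRCh38.p14) are shown for that reason, although nothing was measured at them. Capitals mark the motif TATAAA, which was searched on both strands together with GGGCGG and TGANTCA, with no overlap between matches.
S100A4 (chr1:153545807-153546056, minus strand): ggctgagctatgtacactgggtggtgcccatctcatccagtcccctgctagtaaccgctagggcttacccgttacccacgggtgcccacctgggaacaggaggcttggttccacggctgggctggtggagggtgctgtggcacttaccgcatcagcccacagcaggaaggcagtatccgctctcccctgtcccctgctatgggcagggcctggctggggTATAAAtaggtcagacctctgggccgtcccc
S100P (chr4:6693628-6693877, plus strand): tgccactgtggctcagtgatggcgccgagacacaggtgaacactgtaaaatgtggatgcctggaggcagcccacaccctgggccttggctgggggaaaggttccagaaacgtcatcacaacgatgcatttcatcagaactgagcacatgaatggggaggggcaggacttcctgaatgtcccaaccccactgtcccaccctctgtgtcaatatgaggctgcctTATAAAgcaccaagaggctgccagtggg
TATAAA occurred in 3763 of 35116 promoters of the same length, GGGCGG in 42.6% and TGANTCA in 6.57%. Among the 14 RefSeq starts of the 10 genes, 5 held TATAAA, those of S100A4, S100P, S100A9 and 2 of the 3 starts of S100A8. GGGCGG was found before a start of S100A6, S100A9, S100A10, S100A11 and S100A16, and TGANTCA before 1 of the 2 starts of S100A2. The S100A4 stretch held 7 CG dinucleotides and the S100P stretch 4, against a median of 11 over all promoters. These matches describe letters and not binding.

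All values below are levels on a log2 scale, the probe's signal over the 75th percentile of its own array, so a level of 0 is the 75th percentile and a difference of 1 is a doubling. Levels of different probes were not set against each other. Testing required a signal well above background on 3 or more of the 12 arrays, which 33714 probes and 9 of the 11 S100 probes met. The 75th percentile of the signal ran from 614 to 715 across arrays, 55.8% to 63.1% of probes were well above background, and no spot was saturated. All A549 arrays lay on 1 slide and the PC14 and PC14CDDP arrays on another, so A549 and slide cannot be told apart. The column on the slide followed the transfection. On the shared slide the PC14 arrays filled row 1 and the PC14CDDP arrays row 2. The difference between PC14CDDP and PC14 therefore cannot be told apart from the row. Fewer cells of a kind and less RNA per cell cannot be told apart in such cultures.

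The epithelial markers KRT8, KRT18 and KRT19 were well above background on all 12 arrays, whereas EPCAM and CDH1 were so on the 4 A549 arrays, on 3 and 2 PC14 arrays and on 0 of the 4 PC14CDDP arrays. NKX2-1, a lung lineage factor, was well above background on all PC14 and PC14CDDP arrays and on 0 A549 arrays. NAPSA, from the same list of lung adenocarcinoma markers, went the other way. Its probes were higher in A549 than in PC14 by 1.61 and 1.20, and than in PC14CDDP by 2.38 and 1.19. The SFTPB probes, also on that list, were well above background on 1 and 0 arrays. Of the 5 myeloid marker genes measured 3 were well above background on all arrays, with a summed log2 level of 0.95 to 1.21 in A549, -2.43 to -1.96 in PC14 and -2.38 to -1.89 in PC14CDDP. These 3 were CD14, ITGAM and PTPRC. PTPRC counted through some of its probes only, and its other probes were well above background on 0 arrays. Of 5 fibroblast genes 3 were well above background on no array, the summed level being 0.59 to 1.08 in A549 and at most -2.47 in the other lines, and of 4 squamous genes 2 were well above background on no array. The part of these markers in the S100 differences was not tested.

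S100A8 and S100A9, which pair as calprotectin in neutrophils and monocytes, were well above background on 0 of 12 arrays. The S100A8 signal lay between -8.05 and -6.13 and the S100A9 signal between -8.30 and -6.86, so neither had a measurable level or a fold change in any line or transfection.

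**Figure D1:**
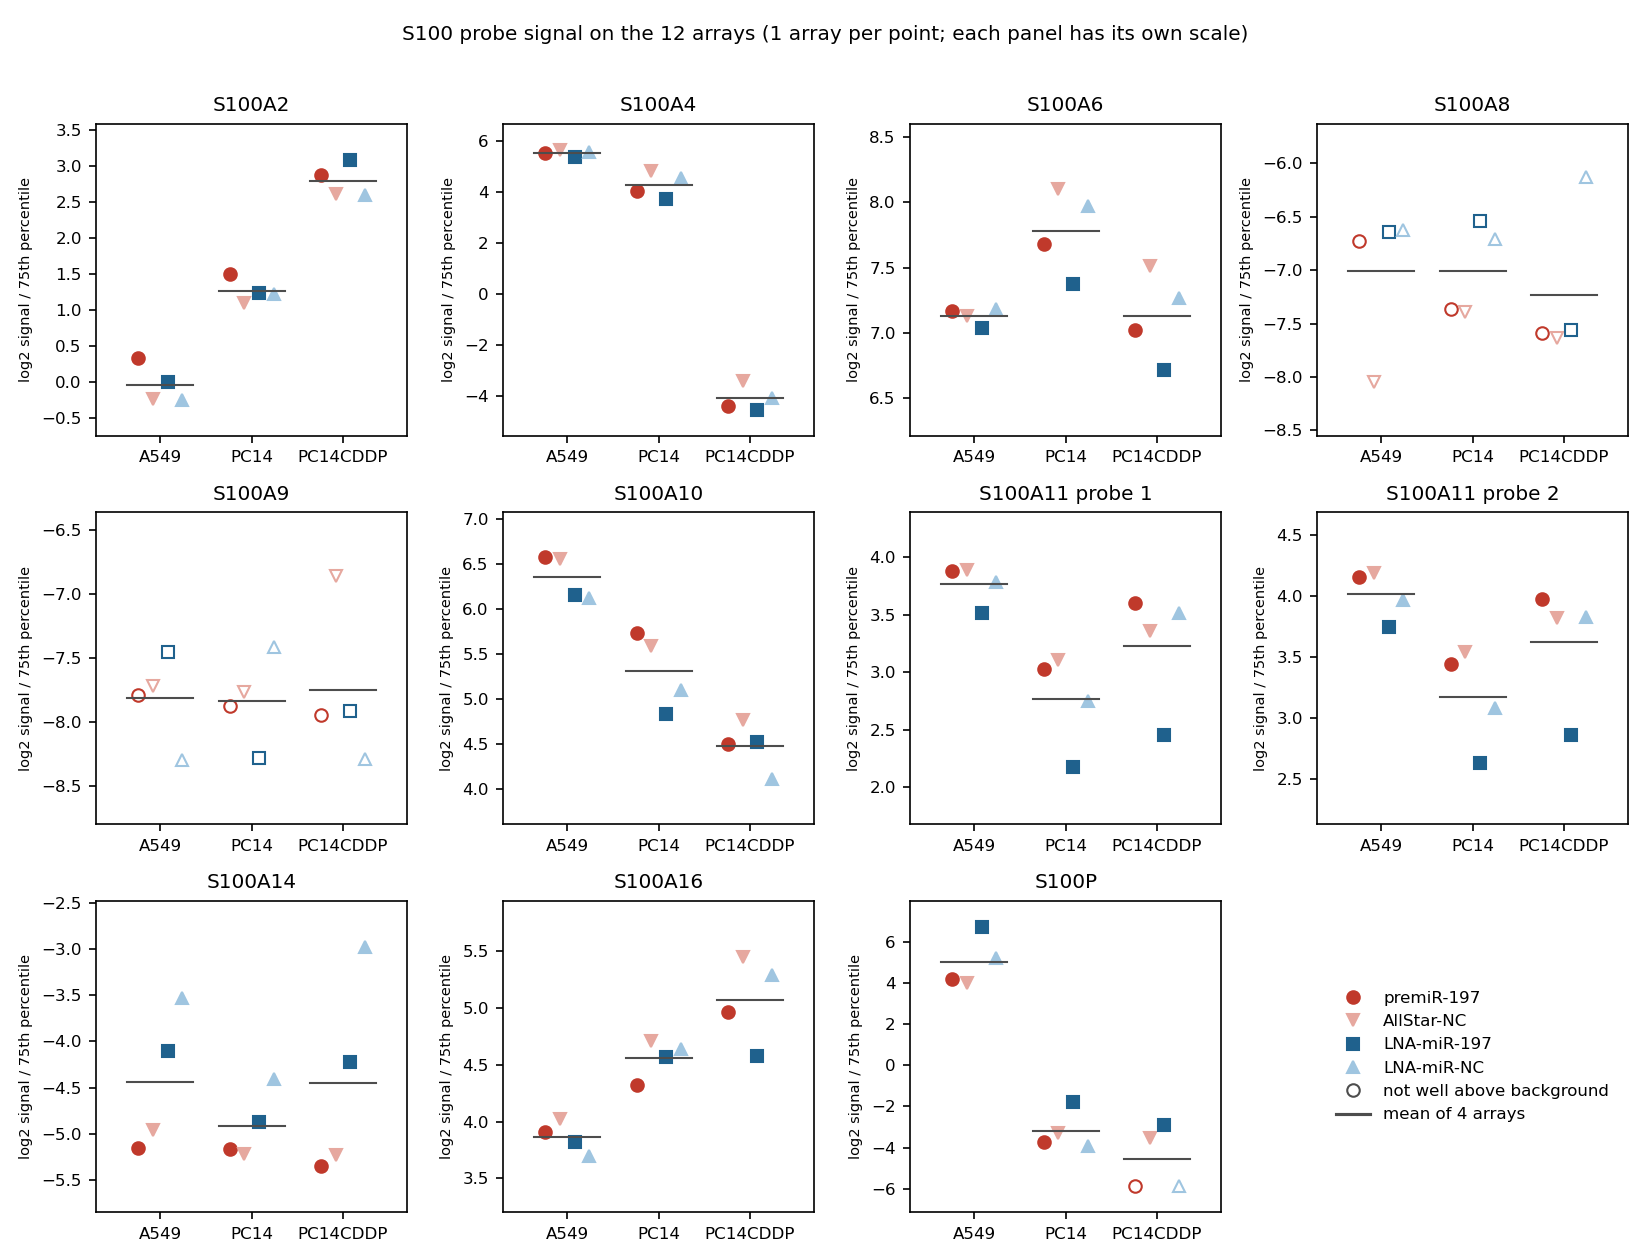
Levels of the 11 S100 probes (vertical axis, log2 of signal over each array's 75th percentile) in the 3 lines, 1 array per point, with the transfection as colour and shape, open symbols not well above background and a line at the mean of 4 arrays. S100A4 falls to a mean of -4.10 in PC14CDDP, S100P stands at a mean of 5.03 in A549 alone, and S100A8 and S100A9 are open on every array.

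PC14CDDP was compared with PC14 to ask how the S100 genes stood in the cisplatin-resistant line. S100A4 was 339-fold lower in PC14CDDP, S100A10 and S100A6 were lower by 1.79-fold and 1.57-fold, S100P was called lower with only 2 of 4 arrays well above background, S100A2 was 2.89-fold higher, and S100A16 and S100A11 were higher by 1.36-fold to 1.42-fold. Of the 9 probes, 4 were called higher and 4 lower by limma with Benjamini-Hochberg adjustment over all probes tested, where 25.1% of all probes were called higher and 23.5% lower. The median difference of the 9 probes, S100A11 counted by both of its probes, was 0.45, against 0.04 over all probes tested. This median was the value of S100A11 probe 2 itself. With 1 S100A11 probe left out, the middle of the ordered values lies between S100A6 at -0.65 and S100A11 at 0.45 or 0.47. The median is therefore no sign of a shared rise in PC14CDDP.

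S100A4, also called metastasin, binds non-muscle myosin IIA and is known for its part in cell motility. Its level in PC14 was 4.05 with premiR-197, 4.83 with AllStar-NC, 3.75 with LNA-miR-197 and 4.58 with LNA-miR-NC. In PC14CDDP it was -4.39, -3.40, -4.54 and -4.07 in the same order of transfections. Every PC14CDDP array lay more than 7 log2 units below every PC14 array, and the probe stayed well above background on all of them. The difference was -8.40 (SE 0.16, adjusted p = 4.8e-08 by limma), and only 7 of the 33714 probes tested, S100A4 included, were lower by as much. Under other processing the difference ran from -8.46 to -6.86, the latter with normexp background correction.

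S100A2, a nuclear member that can bind p53, moved the other way. In PC14 its level was 1.50 with premiR-197, 1.09 with AllStar-NC, 1.23 with LNA-miR-197 and 1.22 with LNA-miR-NC. In PC14CDDP it was 2.88, 2.61, 3.09 and 2.6 in that order. The groups did not overlap, and S100A2 was higher in PC14CDDP by 1.53 (SE 0.11, adjusted p = 1.5e-05 by limma).

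S100A10, the partner of annexin A2, has lost the ability to bind calcium. Its level in PC14 was 5.74 with premiR-197, 5.59 with AllStar-NC, 4.83 with LNA-miR-197 and 5.10 with LNA-miR-NC, and in PC14CDDP it was 4.50, 4.77, 4.53 and 4.11. The highest PC14CDDP array lay just below the lowest PC14 array, and the difference was -0.84 (SE 0.14, adjusted p = 0.00129 by limma). S100A6, or calcyclin, stood at 7.68, 8.10, 7.37 and 7.97 in PC14 and at 7.02, 7.51, 6.71 and 7.27 in PC14CDDP. The lines overlapped on this probe, but PC14CDDP was lower in each of the 4 transfections, by 0.59 to 0.70, and the difference was -0.65 (SE 0.12, adjusted p = 0.00258 by limma).

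S100A16, a broadly expressed member, was 4.32, 4.71, 4.57 and 4.64 in PC14 and 4.97, 5.45, 4.58 and 5.29 in PC14CDDP. The difference of 0.51 (SE 0.15, adjusted p = 0.0226 by limma) was near 0.01 between the LNA-miR-197 arrays, and it missed the threshold without the AllStar-NC (adjusted p = 0.123), LNA-miR-NC (0.0756) or premiR-197 (0.0942) arrays. S100A11, the partner of annexin A1, read 3.02, 3.1, 2.18 and 2.75 in PC14 by probe 1 and 3.61, 3.36, 2.45 and 3.51 in PC14CDDP. Probe 2 read 3.44, 3.55, 2.63 and 3.08 in PC14 and 3.98, 3.82, 2.86 and 3.83 in PC14CDDP, so the LNA-miR-197 array was the lowest of each line by both probes. Both probes called it higher in PC14CDDP, by 0.47 (SE 0.14, adjusted p = 0.0260 by limma) and 0.45 (SE 0.13, adjusted p = 0.0249 by limma), with overlapping lines, and both missed the threshold when the AllStar-NC, LNA-miR-NC or premiR-197 arrays were left out, with adjusted p from 0.0588 to 0.133. S100P was lower in PC14CDDP, at a difference of -1.37 (SE 0.48, adjusted p = 0.0446 by limma), with overlapping lines and only 2 of 4 PC14CDDP arrays well above background. That call stood in 7 of 16 fits, and its value ran from -1.74 to -0.47, the latter with normexp background correction (adjusted p = 0.241). Leaving out the premiR-197 arrays gave an adjusted p of 0.196, the LNA-miR-NC arrays 0.105 and the LNA-miR-197 arrays 0.117.

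S100A14, an epithelial member, read -5.17, -5.22, -4.87 and -4.41 in PC14 and -5.35, -5.23, -4.23 and -2.97 in PC14CDDP. It was 0.47 higher in PC14CDDP, a difference that missed the threshold (95% interval -0.08 to 1.02, adjusted p = 0.143 by limma). By exact permutation tests over 4 against 4 arrays, two-sided, S100A4, S100A2 and S100A10 reached the smallest p possible, 0.0286, which became 0.0482 after adjustment over 27 tests. The 27 tests took in all 3 line comparisons. Of 9 probes, 8 did not overlap between A549 and PC14, 5 between A549 and PC14CDDP, and 3 between PC14CDDP and PC14. The share of all probes tested that did not overlap was not counted, so these counts are no result about the S100 genes. The adjusted value therefore rests partly on the A549 comparisons, where line and slide cannot be told apart. No adjustment was made within PC14CDDP against PC14 alone.

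**Figure D2:**
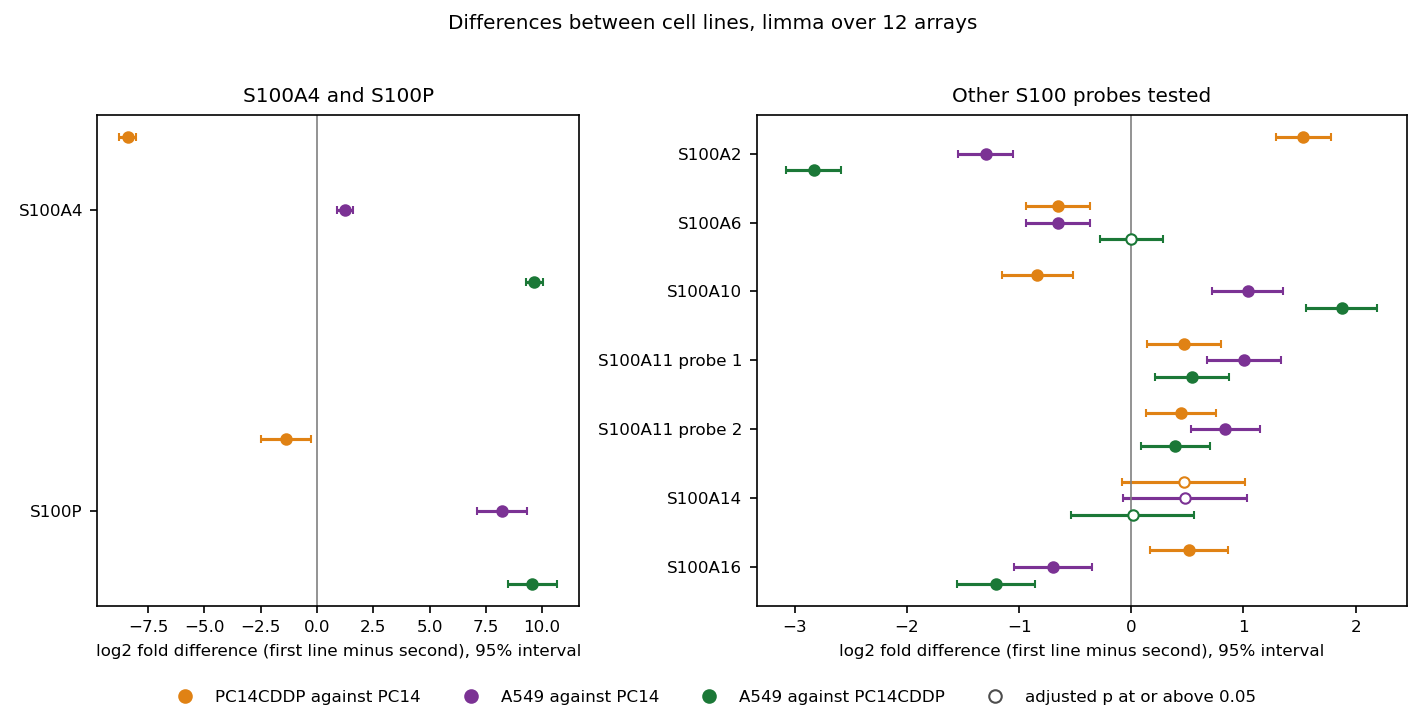
Differences between lines in log2 units (horizontal axis) with 95% intervals from limma over 12 arrays, for S100A4 and S100P on the left and the other tested S100 probes on the right, where open symbols missed the threshold. S100A4 stands at -8.40 for PC14CDDP against PC14, and S100P at 8.20 for A549 against PC14.

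A549 differed from PC14 most in S100P and from PC14CDDP most in S100A4 and S100P. S100P, a placental member that binds ezrin and AGER, was 295-fold higher in A549 than in PC14 and 760-fold higher than in PC14CDDP, the latter against a line in which 2 of 4 arrays were well above background. S100A4 was 2.37-fold higher than in PC14 and 803-fold higher than in PC14CDDP. These sizes depended on how background was treated. Against PC14, 5 of the 9 probes were called higher in A549 and 3 lower, where 34.4% and 33.1% of all probes were called. Against PC14CDDP, 5 were called higher and 2 lower, where 35.5% and 34.7% of all probes were called.

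The S100P level in A549 was 4.16 with premiR-197, 4.01 with AllStar-NC, 6.73 with LNA-miR-197 and 5.23 with LNA-miR-NC. In PC14 it was -3.72, -3.27, -1.78 and -3.90 in that order, and in PC14CDDP it was -5.87, -3.51, -2.88 and -5.88, where the premiR-197 and LNA-miR-NC arrays were not well above background. The lowest A549 array lay more than 5 log2 units above the highest array of either other line. The differences were 8.20 (SE 0.48, adjusted p = 1.8e-06 by limma) against PC14 and 9.57 (adjusted p = 6.6e-07 by limma) against PC14CDDP, and with normexp background correction they were 7.21 and 7.68.

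S100A4 in A549 was 5.56 with premiR-197, 5.67 with AllStar-NC, 5.39 with LNA-miR-197 and 5.57 with LNA-miR-NC. It lay above every PC14 array, by 1.24 on average (SE 0.16, adjusted p = 0.00019 by limma), and above PC14CDDP by 9.65 (adjusted p = 2.5e-09 by limma), or 8.19 with normexp. The order of the S100A4 levels was therefore A549, PC14 and PC14CDDP, with no overlap between neighbours.

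S100A2 took the opposite order. In A549 it was 0.33, -0.24, -0.00 and -0.25 in the order premiR-197, AllStar-NC, LNA-miR-197 and LNA-miR-NC, below PC14 (difference -1.30, SE 0.11, adjusted p = 1.2e-05 by limma) and below PC14CDDP (difference -2.83, adjusted p = 1.4e-07 by limma). S100A16 shared this order of means, at 3.91, 4.02, 3.82 and 3.70 in A549, with differences of -0.70 against PC14 (adjusted p = 0.00347 by limma) and -1.21 against PC14CDDP (adjusted p = 0.00013 by limma). No A549 array overlapped either other line on these probes.

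S100A10 and S100A11, which bind annexins, were higher in A549. S100A10 was 6.58 with premiR-197, 6.56 with AllStar-NC, 6.16 with LNA-miR-197 and 6.12 with LNA-miR-NC in A549, and the difference was 1.04 against PC14 (adjusted p = 0.00021 by limma) and 1.88 against PC14CDDP (adjusted p = 5.4e-06 by limma). S100A11 was 3.88, 3.89, 3.52 and 3.79 by probe 1 and 4.15, 4.19, 3.75 and 3.97 by probe 2. Both probes were higher than in PC14, by 1.01 and 0.84, and than in PC14CDDP, by 0.54 (adjusted p = 0.00921 by limma) and 0.39 (adjusted p = 0.0287 by limma). The difference of probe 2 from PC14CDDP stood in 9 of 17 fits and missed the threshold without the AllStar-NC (adjusted p = 0.0844), LNA-miR-197 (value 0.23, adjusted p = 0.113) or premiR-197 (adjusted p = 0.0506) arrays.

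S100A6 was 7.17, 7.13, 7.03 and 7.18 in A549, lower than in PC14 (difference -0.65, adjusted p = 0.00156 by limma). It differed from PC14CDDP by -0.00 (95% interval -0.28 to 0.28), within the spread of the arrays. S100A14 was -5.15, -4.96, -4.10 and -3.53 in A549, and its lines overlapped in every pair, with differences of 0.48 (95% interval -0.07 to 1.03) against PC14 and 0.01 (95% interval -0.54 to 0.56) against PC14CDDP.

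Blocking miR-197 with LNA-miR-197 was compared with LNA-miR-NC within the lines. S100P rose 4.61-fold on average over the 3 lines, and it was the only 1 of the 9 probes called, where 7.95% of all probes were called. In PC14CDDP the control array was not well above background, so the size of the change there and in the mean is uncertain. A549 gave a log2 ratio of 1.50, PC14 2.12 and PC14CDDP 3.0. LNA-miR-197 was the highest of the 4 arrays in each line. The fitted change was 2.21 (SE 0.55, adjusted p = 0.0497 by limma), and 42 of the 33714 probes tested, S100P included, rose by as much. The call lay at the threshold and stood in 4 of 16 fits. These were the main fit, the deposited table, which holds the same values, normexp, and the trend and robust prior. The S100P call was lost with quantile normalization. It was lost without A549 (adjusted p = 0.0859), without PC14 (0.270) and without PC14CDDP (0.216), while the value ran from 1.81 to 2.56. With normexp background correction the value was 1.27 (adjusted p = 0.0407). Against AllStar-NC, a control of another kind, the ratios were 2.72, 1.49 and 0.63, with a mean of 1.61 (adjusted p = 0.0866 by limma).

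In the main fit the other 8 probes missed the threshold. The median over the 9 probes, S100A11 counted by both of its probes, was -0.43 against -0.02 over all probes tested. In the order A549, PC14 and PC14CDDP, S100A11 had log2 ratios of -0.27, -0.57 and -1.07 by probe 1 and -0.22, -0.45 and -0.97 by probe 2. Both were below 0 in all 3 lines, with adjusted p of 0.0543 and 0.0693 by limma. S100A6 had ratios of -0.15, -0.60 and -0.56 (adjusted p = 0.0948 by limma), and S100A4 of -0.18, -0.83 and -0.48 (adjusted p = 0.133 by limma). S100A14 had ratios of -0.57, -0.47 and -1.25 (adjusted p = 0.121 by limma). S100A2, S100A16 and S100A10 had means of 0.25, -0.22 and 0.06, with adjusted p from 0.235 to 0.838 by limma.

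**Figure D3:**
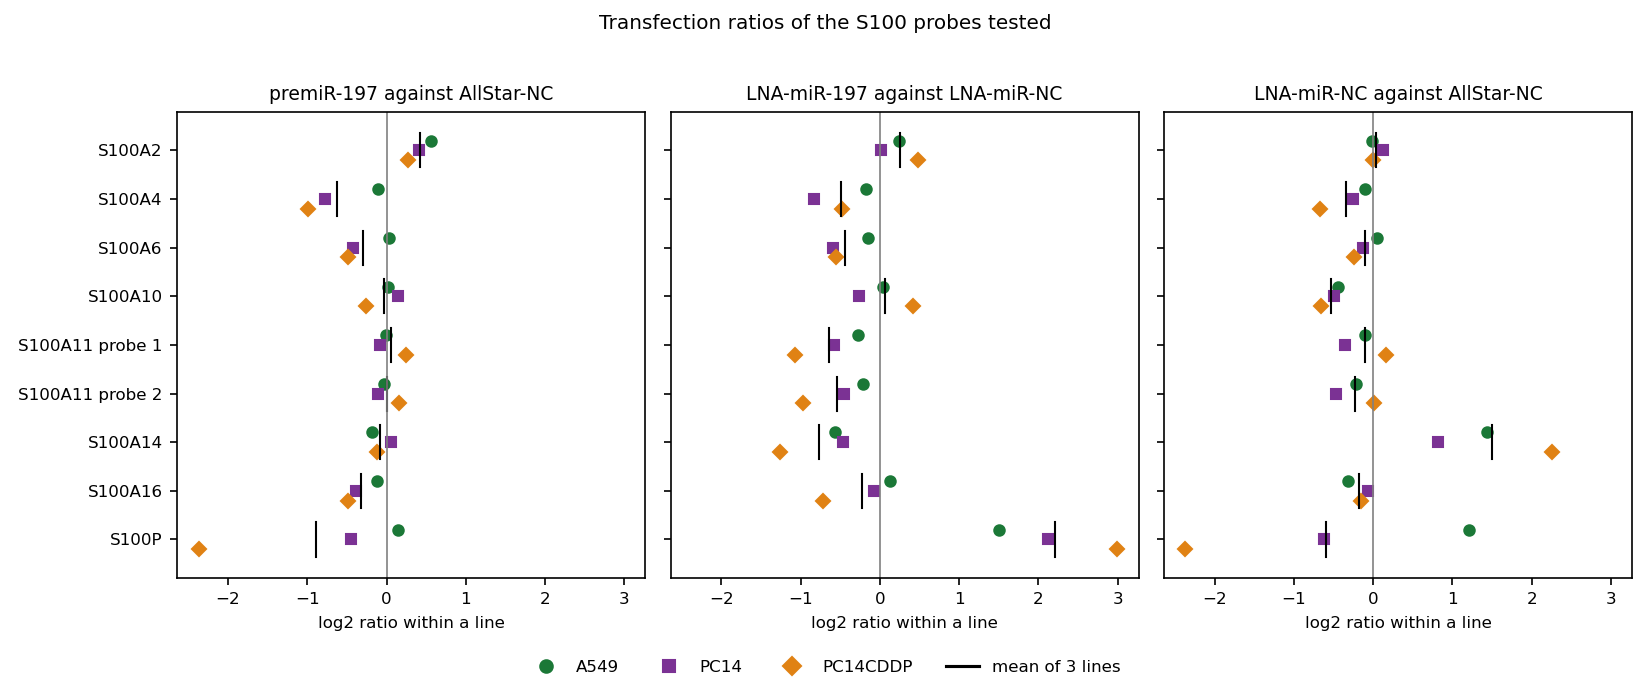
Log2 ratios within each line (horizontal axis) of the 9 tested S100 probes for premiR-197 against AllStar-NC, LNA-miR-197 against LNA-miR-NC and LNA-miR-NC against AllStar-NC, with 1 point per line and a bar at the mean of 3 lines. S100P stands at 1.50 to 3.0 in the middle panel, and S100A14 at 0.81 to 2.26 in the right panel.

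Raising miR-197 with premiR-197 changed 0 of the 9 S100 probes by limma, where 0.0801% of all probes were called, 27 in all, against 5377 at an unadjusted p under 0.05. In the order A549, PC14 and PC14CDDP, log2 ratios to AllStar-NC were 0.57, 0.41 and 0.28 for S100A2 and -0.11, -0.78 and -0.99 for S100A4. These were the 2 probes with an unadjusted p under 0.05, and their adjusted p were 0.176 and 0.178 by limma. S100P had ratios of 0.15, -0.45 and -2.36 (adjusted p = 0.478 by limma), so the lines did not share a direction. The premiR-197 array of PC14CDDP was not well above background for S100P, so the size of the ratio there is uncertain. The remaining 6 probes had means between -0.33 and 0.05.

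The 2 negative controls, which each serve in a comparison above, were set against each other to show what the control transfections alone did. By limma 0 of 9 S100 probes were called, where 0.454% of all probes were called, 153 in all, against 4444 at an unadjusted p under 0.05. S100A14 was higher with LNA-miR-NC in all 3 lines, with ratios of 1.43, 0.81 and 2.26 and a mean of 1.50 (adjusted p = 0.0669 by limma). Over all fits this value ran from 0.52 to 1.84. The S100A14 level on the 6 arrays with either LNA oligonucleotide lay between -4.87 and -2.97, above the range of -5.35 to -4.96 on the 6 arrays with premiR-197 or AllStar-NC. That lower range was well above background but near the floor. In PC14CDDP with AllStar-NC the level was -5.23, where the lowest level well above background on the array was -5.77. The size of the S100A14 ratios is therefore uncertain. This split was looked at for S100A14 alone, and the share of all probes that separate in this way was not counted. The kind of oligonucleotide and the position on the slide cannot be told apart in it. S100A10 had ratios of -0.44, -0.49 and -0.65 (adjusted p = 0.206 by limma), and S100P of 1.21, -0.62 and -2.37 (adjusted p = 0.711 by limma). For S100P the LNA-miR-NC array of PC14CDDP was not well above background. The LNA-miR-NC and AllStar-NC arrays are shared with the comparisons above, so these ratios are not independent of them.

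**Figure D4:**
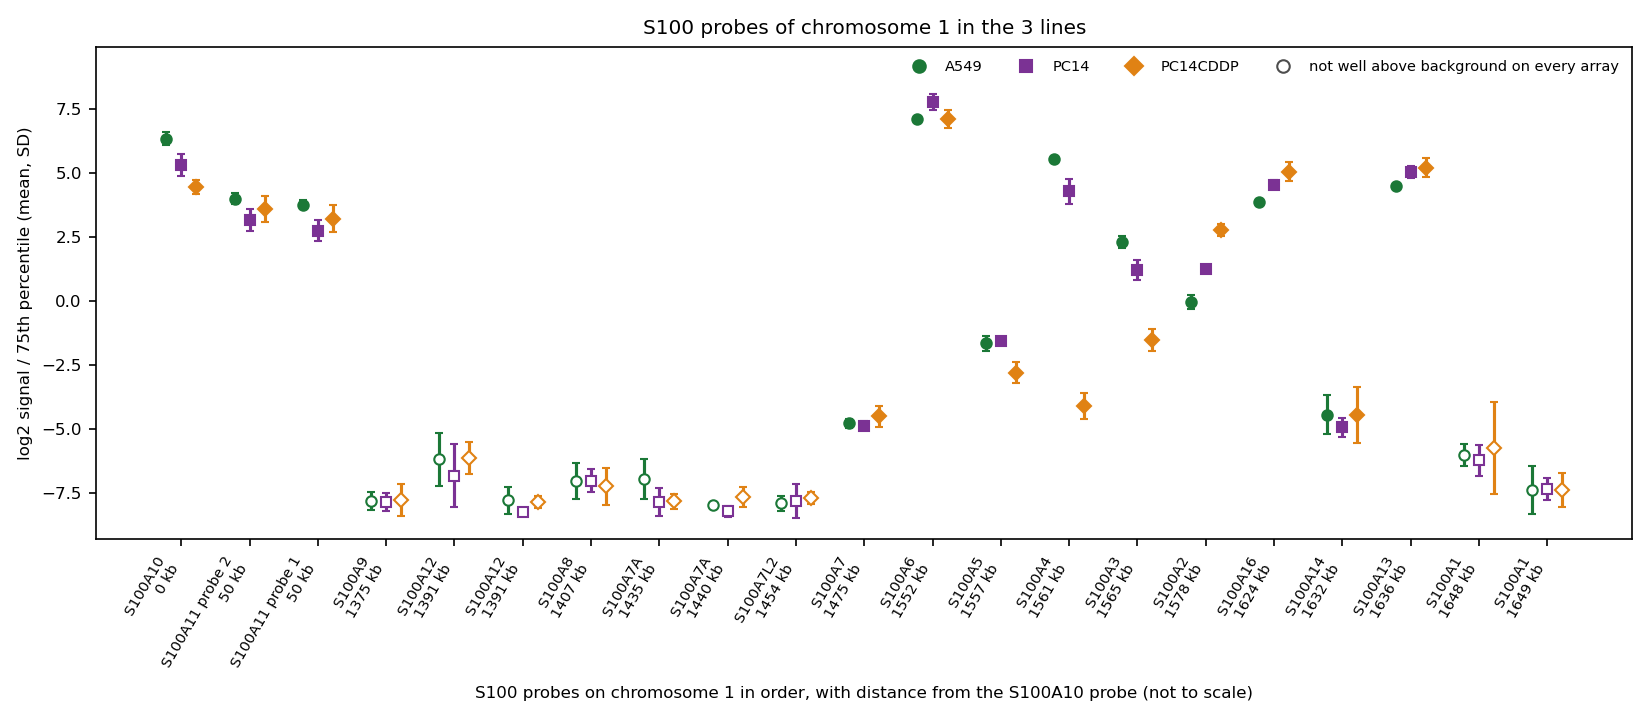
Levels (vertical axis, log2 of signal over each array's 75th percentile, mean and SD over the arrays of a line) of the S100 probes of chromosome 1 in their order along it, with the distance from the S100A10 probe in kb, where open symbols were not well above background on every array. Lines are to be compared within a probe. Among probes with filled symbols in every line, PC14CDDP lies below PC14 at S100A10, S100A6, S100A5, S100A4 and S100A3. It lies above PC14 at S100A11, S100A7, S100A2, S100A16, S100A14 and S100A13. S100A3 has 3 PC14CDDP arrays.

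The other genes of the family were represented by 15 probes of 11 genes, of which 4 probes, 1 each of S100A5, S100A7, S100A13 and S100A12, were tested. In PC14CDDP against PC14, 0 were called higher and 1 lower, where 25.1% and 23.5% of all probes were called. In A549 against PC14 the counts were 0 and 1, where 34.4% and 33.1% of all probes were called, and in A549 against PC14CDDP 1 and 1, where 35.5% and 34.7% were called. None of the 4 was called in the 3 transfection comparisons. The probe called lower in PC14CDDP was S100A5, which lies beside S100A4, with a difference of -1.23 (adjusted p = 0.000325 by limma). S100PBP, which binds S100P and is not an S100 protein itself, was higher in PC14CDDP than in PC14 by both its probes, by 0.35 and 0.56. S100A3, on the other side of S100A4, lacked a value on the PC14CDDP array with LNA-miR-197 and was not tested. Its level was 2.50, 2.27, 2.52 and 1.99 in A549, 1.13, 1.63, 0.70 and 1.44 in PC14, and -2.0, -1.17 and -1.35 on the other PC14CDDP arrays, in the order premiR-197, AllStar-NC, LNA-miR-197 and LNA-miR-NC. The 3 PC14CDDP values lay below all 4 PC14 values. The neighbouring genes S100A6, S100A5, S100A4 and S100A3 had lower means in PC14CDDP than in PC14, while S100A2 next to them had a higher mean. S100A6 overlapped between these lines, and S100A3 was not tested. On the other side of S100A6, the S100A7 probe was higher by 0.36, with overlapping lines, and was not called. The share of all probes with a lower mean was not counted.

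The receptors and binding partners of S100 proteins were represented by 45 probes of 29 genes, with 42 probes tested. In PC14CDDP against PC14, 13 probes were called higher and 19 lower, with a median of -0.29, where 25.1% and 23.5% of all probes were called. In A549 against PC14 the counts were 12 and 21, where 34.4% and 33.1% of all probes were called, and in A549 against PC14CDDP 16 and 19, where 35.5% and 34.7% were called. ANXA1, the annexin that binds S100A11, had a difference of -4.33 between PC14CDDP and PC14 (adjusted p = 2.5e-07 by limma) and was higher in A549 than in PC14 by 7.22 (adjusted p = 4.8e-09 by limma). ANXA2, the annexin that binds S100A10, was higher in A549 than in PC14 by 3.28 and 1.20 on its 2 probes. The other annexins did not share this direction. In A549 against PC14, ANXA5 had a difference of -1.72 and ANXA6 of -1.46, and the ANXA11 probes gave -0.88, -0.27 and 0.56. Among receptors, TLR4 was higher in PC14CDDP than in PC14 by 4.42 and 4.28, and was well above background on 0 of 4 A549 arrays. AGER was higher in PC14CDDP than in PC14 by 1.29 and 0.93 on 2 of its probes, the other giving 0.59 (adjusted p = 0.0751 by limma), and ALCAM was higher in A549 than in PC14 by 6.41. CTSB, a protease bound by S100 complexes, had a difference of -2.04 in PC14CDDP from PC14, and PLAUR, the urokinase receptor, of -1.18. Both were also lower in A549 than in PC14, with differences of -2.25 for CTSB and -2.72 for PLAUR.

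In LNA-miR-197 against LNA-miR-NC, 2 of the 42 partner probes were called, both higher, where 7.95% of all probes were called in either direction. These were 1 of 3 probes of ANXA11, an annexin that binds S100A6, at 1.14 (adjusted p = 0.0107 by limma), the others giving -0.28 and -0.27 (adjusted p = 0.157 and 0.321), and EZR, which encodes ezrin, a partner of S100P, at 0.49 (adjusted p = 0.0387 by limma). No partner probe was called with premiR-197 or between the controls.

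Genes outside the family with the most similar pattern were found by Pearson r over the 12 arrays, which fall into 3 lines, so r mainly reflects 3 levels. For S100A4 these were PRSS23 (r = 0.998) and GRB10 (r = 0.998), for S100P HTATSF1P2 (r = 0.988) and XLOC_010952 (r = 0.987), and for S100A2 PHB1 (r = 0.996) and GSK3B (r = 0.995). For S100A10 they were COX5A (r = 0.984) and the unnamed probe A_33_P3270966 (r = 0.982), and for S100A14 RNF151 (r = 0.952) and LOC100507904 (r = 0.937). A549, PC14 and PC14CDDP had mean PRSS23 levels of 3.35, 2.13 and -5.70, the order that S100A4 took.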

How the data were processed

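RNA from 12 transfected cultures (100 ng each) was labelled with 1 colour and hybridised to SurePrint G3 Human GE v2 arrays. Per the file headers, the authors extracted spot intensity with Agilent Feature Extraction 10.7.3.1, which subtracts background, and deposited the processed signal. The deposited table of linear signal equalled the scanner values on every spot (0 differed), so scanner files were used. The study's methods and the labels were read for groups. The value analysed was log2 of the ratio of processed intensity to each array's 75th percentile. Control and outlier spots were left out, spots of a probe were averaged, 106 of 50599 probes lacking a value on an array were dropped, and probes well above background on at least 3 of 12 arrays were tested. The number of arrays limits the precision. limma 3.58.1 in R 4.3.3 fitted transfection and line over all 12 arrays, with Benjamini-Hochberg adjustment over 33714 probes and a threshold of 0.05. The script was tested on simulated data. The line was the replicate number and was in the model, since the arrays of a line come from the same cell line and their deviations correlated at 0.845 to 0.947. Exact permutation tests served for single probes. The rule for named genes took all members and, of the family and partner lists, those called, at most 6 per list and comparison by adjusted p. The 5 members of largest range were given their most similar genes, among probes well above background on at least 9 arrays. Gene names are those of the files, and 28174 of 50599 probes (55.7%) matched RefSeq by accession. The members, lists and tests were chosen with earlier results of these data known. Alternatives were quantile normalization, normexp with an offset of 50, other filters, tools and designs, and leaving out each line or transfection.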

Additional observations from a re-analysis of the deposited data

Results flagged for a closer look

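S100P moved in opposite directions between the negative controls. The log2 ratio of LNA-miR-NC to AllStar-NC was 1.21 in A549 and -2.37 in PC14CDDP, a gap of 3.58 that was not tested, and the LNA-miR-NC array of PC14CDDP was not well above background. S100A10 had a log2 ratio of LNA-miR-197 to LNA-miR-NC of 0.42 in PC14CDDP and -0.27 in PC14, a gap of 0.68 that was not tested. On probe 2 of S100A11 the LNA-miR-197 array of PC14CDDP stood apart below the other 3 arrays of the line, with a gap of 0.856 of the whole range, past Dixon's critical value for 4 samples. A total of 27 groups of 4 arrays were looked at in this way, and chance flags about 1 in 20.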

How the results depend on the processing

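Across the alternatives run for single S100 probes, 739 values kept their direction and their side of the threshold, 52 fell below the threshold, 15 rose past it and 22 changed sign. The calls for S100A4 and S100A2 in all 3 line comparisons and for S100P in A549 stood under every alternative run. The count of S100 probes called for LNA-miR-197 was 1, and it became 0 with 1 probe per gene, the mean of the probes of a gene, the methods' t-test, no filter, no replicate block, only the arrays of the comparison, the slide as block, and without replicate 1, 2 or 3 (0 to 0). It was 2 with a filter on all 12 arrays and 4 against AllStar-NC, with normexp or with a trend and robust prior. S100P was not tested with the filter on all 12 arrays and missed the threshold against AllStar-NC, so the calls there were of other probes. With quantile normalization the count stayed at 1, but the call was of S100A11 probe 1 and not of S100P. Over all fits of this comparison S100A11 was called in 5 of 15 by probe 1 and in 4 of 17 by probe 2. S100A6 was called in 3 of 17 and S100A4 in 1 of 17, and all these values were below 0. LNA-miR-NC against AllStar-NC went from 0 to 1 with the filter on all 12 arrays or the trend and robust prior. For PC14CDDP against PC14 the count of 8 became 3 with the methods' t-test, 4 with quantile normalization, 5 with no transfection term or with only the control transfections, and 4 to 7 when 1 transfection was left out.

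Without the replicate block, 3 probes of all were called for LNA-miR-197 in place of 2680, 6 in place of 153 for LNA-miR-NC and 0 in place of 27 for premiR-197, since line differences then enter the error. The block is part of the main model because the arrays pair by line. Over all probes LNA-miR-197 gave 4983 calls against AllStar-NC, 4296 with the filter on all 12 arrays, 4404 with normexp, 4600 with the trend and robust prior, 1718 with the mean of probes, 573 with no filter, 5 with the slide as block and 0 with the t-test, when other arrays were left out of the fit, and without any 1 line. For premiR-197 these counts ran from 0 to 644, for LNA-miR-NC from 0 to 337, and for PC14CDDP against PC14 from 10800 to 18965. Of the 153 calls for LNA-miR-NC 110 were higher and 43 lower, against 189 and 30 with normexp. No scaling moved the median of all probes by over 0.1.

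Signs changed as follows, and the cause was not tested. With premiR-197, quantile normalization gave -0.017 and -0.065 for the S100A11 probes, and leaving out each replicate gave ranges of -0.12 to 0.081 for S100A10, -0.046 to 0.12 for S100A11 probe 1 and -0.068 to 0.064 for probe 2, the turned values falling without PC14CDDP. With LNA-miR-197 against AllStar-NC, S100A10 was -0.47 and S100A14 0.74, and leaving out each replicate gave -0.11 to 0.23 for S100A10 and -0.40 to 0.024 for S100A16. Between the controls, S100P was 0.079 with normexp, and leaving out each replicate gave -1.50 to 0.29 for S100P, -0.0070 to 0.060 for S100A2 and -0.23 to 0.026 for S100A11 probe 1. For A549 against PC14CDDP, quantile normalization gave 0.16 for S100A6 and -0.27 for S100A14, and S100A14 was -0.020 with normexp and -0.14 with only the controls. Leaving out a transfection there gave -0.11 to 0.13 for S100A6 and -0.075 to 0.20 for S100A14. S100P in PC14CDDP was limited by signal over background.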
